A study of Mus musculus with 41 samples.

Results

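Transcripts of 44 lysosomal genes were followed in mouse mesothelioma cell lines and tumors, out of 27197 genes in the count table. The set holds 9 cysteine cathepsins, 5 other proteases or protease partners, 13 glycosidases, 4 sulfatases, 4 lipid hydrolases, 4 activator or lipid transfer proteins, 4 membrane proteins and the regulator Tfeb. It was selected on these data, because Manba and Lgmn were among the genes most clearly lower in lines without Bap1. The question was whether the rest of the class had the same pattern. The values of Manba and Lgmn in that comparison are therefore a description without a test.

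The lysosome breaks down proteins, sugar chains, sulfated chains and lipids with a large set of acid hydrolases. These enzymes are made in the endoplasmic reticulum, receive mannose 6-phosphate in the Golgi and are sorted into an organelle acidified by a proton pump. Many of their genes carry an E-box site bound by TFEB and its relatives. In solid tumors, cathepsins and legumain are made by the cancer cells and also by macrophages, which are rich in lysosomes.

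Mesothelioma was induced in mice of mixed FVB, Bl6 and 129Ola background by adenovirus with Cre under the ubiquitous CMV promoter, injected into the pleural space of young mice that had received cyclosporine A. BNC stands for Bap1-/-;Nf2-/-;Cdkn2ab-/- and NC for Nf2-/-;Cdkn2ab-/-, so loss of Nf2 and of the Cdkn2ab locus is shared by all groups. Ink4a and Ink4b were already absent from the germline of the Cdkn2ab mice, and p19Arf was conditional. The lines were grown out of pieces of primary tumors, 3 with the BNC genotype (JB81, JB91, and JB97) and 3 with the NC genotype (JB84, JB87, JB93), and no treatment of the cultures is given. RNA of 9 whole tumors was also counted. The labels list 5 BNC and 4 NC tumors, but the column names do not say which tumor is which, so the tumors are described here without genotype.

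The total count of the lines lay between 12377675 and 23936922, and that of the tumors between 8158740 and 21851974. Levels are given as CPM, counts per 1000000 of the library after TMM scaling. A count of 3, taken as the detection floor, corresponds to between 0.133 and 0.247 CPM in the lines. Bap1, whose floxed part is exons only in the middle of the gene, was read at 43.2, 44.1, and 38.0 CPM in JB81, JB91, and JB97 and at 61.5, 60.6, and 64.3 CPM in JB84, JB87, and JB93. Reads from exons outside the deleted part are counted too, so this level alone does not check the deletion. Cdkn2b had at most 1 count and Cdkn2a at most 12 counts in any line, and Nf2, read at between 88.3 and 123 CPM, overlapped between the groups.

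Before the comparison, the lines were set against each other, because they do not stand at equal distances. JB81 and JB91 had a biological coefficient of variation (spread beyond counting error) of 0.0386, and 5 of 10511 genes differed between them by more than 2-fold. JB84 and JB93 had a coefficient of variation of 0.0578, with 8 of 10545 genes more than 2-fold apart. All other pairs of lines within a group lay between 0.457 and 0.496, whereas JB97 and JB87, of different groups, had 0.402. Both close pairs differed by more than counting error (chi-square p under 0.05 at 21.1% and 28.7% of genes), which repeat libraries of 1 culture can do as well. Each line was kept as a sample because the labels list it as one, but each group consists of a close pair and 1 other line, and the calls with the pairs summed are given too. The sources used here do not say whether the lines of a pair came from separate mice, and p-values measure only the spread between these samples. The mesothelial marker Msln had 0.221 CPM in JB81, 0.442 CPM in JB91, 230 CPM in JB97, 2064 CPM in JB84, 901 CPM in JB87 and 2151 CPM in JB93. The epithelial keratin genes Krt8, Krt18 and Krt19 were likewise below 1 CPM in JB81 and JB91, whereas Wt1 was between 76.9 and 132 CPM in every line.

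Manba encodes beta-mannosidase, which removes the last mannose from N-glycan fragments. It had 4.34, 4.33, and 5.87 CPM in JB81, JB91, and JB97 and 49.4, 46.3, and 50.4 CPM in JB84, JB87, and JB93. The 2 groups were far apart, at 4.85 ± 0.888 CPM (SD, n = 3) in the BNC lines and 48.7 ± 2.12 CPM in the NC lines, a 10.0-fold difference of the means that was one of the reasons for choosing the set. Lgmn encodes legumain, which cuts after asparagine and processes cathepsins to their mature forms. It had 13.4, 15.3, and 17.1 CPM in the BNC lines and 81.3, 83.5, and 92.4 CPM in the NC lines, 5.62-fold higher in the mean. For both genes JB87 lay beside JB84 and JB93, and JB97 beside JB81 and JB91, so the order of the lines followed the genotype label.

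The promoters of these genes are shown because the members differ in whether they hold the E-box. The windows run from 250 bases before to 50 bases after the annotated start (RefSeq, GRCm38.p6), 5′ to 3′, and neither the Manba window at chr3:135485361-135485660 (plus strand) nor the Lgmn window at chr12:102439679-102439978 (minus strand) holds CACGTG, so no base is in capitals.
Manba: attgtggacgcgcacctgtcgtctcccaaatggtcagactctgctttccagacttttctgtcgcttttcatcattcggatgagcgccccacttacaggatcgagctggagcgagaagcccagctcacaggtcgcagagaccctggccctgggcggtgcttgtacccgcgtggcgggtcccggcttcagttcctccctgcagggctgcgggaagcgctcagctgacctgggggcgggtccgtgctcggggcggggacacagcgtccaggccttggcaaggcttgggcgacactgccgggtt
Lgmn: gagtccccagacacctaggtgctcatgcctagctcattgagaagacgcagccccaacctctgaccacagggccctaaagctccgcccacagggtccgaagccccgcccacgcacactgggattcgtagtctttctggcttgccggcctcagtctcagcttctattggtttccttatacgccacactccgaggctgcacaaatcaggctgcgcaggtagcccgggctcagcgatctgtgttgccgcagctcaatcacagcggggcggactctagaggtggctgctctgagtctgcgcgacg
A second Lgmn start, with its window at chr12:102439043-102439342, does hold CACGTG.

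**Figure D1:**
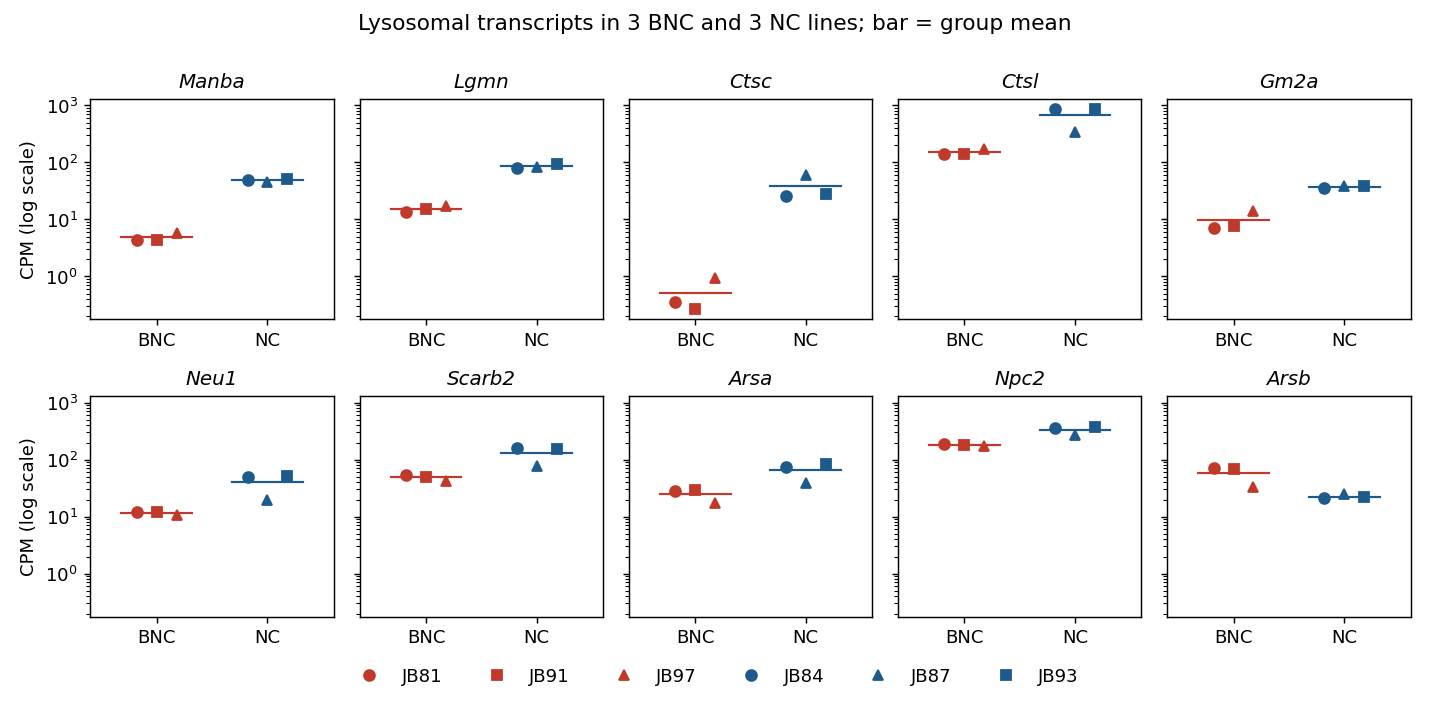
Levels (CPM, log axis) of 10 lysosomal genes in 3 BNC lines (red) and 3 NC lines (blue), 1 point per line, with a bar at the group mean. All NC lines lie above all BNC lines for every gene except Arsb, where the order is the other way round. JB87 (blue triangle) stands below JB84 and JB93 for Ctsl, Neu1, Scarb2, and Arsa.

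Across the whole set, the low level of Manba and Lgmn in the BNC lines was not shared by most members. Of the 44 genes, 41 had enough counts to be tested between the lines, and Ctsf, Ctss and Ctse did not. In the edgeR quasi-likelihood test, adjusted after Benjamini-Hochberg over all genes, at an adjusted p under 0.01 and more than 2-fold, 136 of 12376 genes passed (1.10%), of which 81 were lower in the BNC lines (0.654%). Among the 42 members other than Manba and Lgmn, 39 were tested and 1 passed, Ctsc, which was lower. Ctsc entered the test through its counts in the NC lines, and with 10 counts required in every line it was not tested and Lgmn and Manba were the members called. At an adjusted p under 0.05 with no fold threshold, 7 of these 39 were lower in the BNC lines, where 8.45% of all genes were, and 1 was higher, where 5.78% of all genes were. These percentages come from the same contrast that chose the set, and nothing is read from the members' share beside them.

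The estimates of the members spread widely around a small shift. The median log2 fold change (BNC minus NC) was -0.44 over the 41 members tested and -0.40 without Manba and Lgmn, with all genes at -0.00. Of the 41, 28 had a negative and 13 a positive estimate. Without Manba and Lgmn 26 of 39 were negative, beside 50.2% of all genes in this contrast, which chose the set. In 16 members every NC line lay above every BNC line, which was true of 21.4% of all genes, and in 8 members every BNC line lay above every NC line, which was true of 20.1% of all genes. The summed level of the 44 genes was 4316, 4449, and 3765 CPM in JB81, JB91, and JB97 and 5557, 4103, and 5836 CPM in JB84, JB87, and JB93. The 2 groups overlapped in this sum, since JB87 lay below JB81 and JB91.

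**Figure D2:**
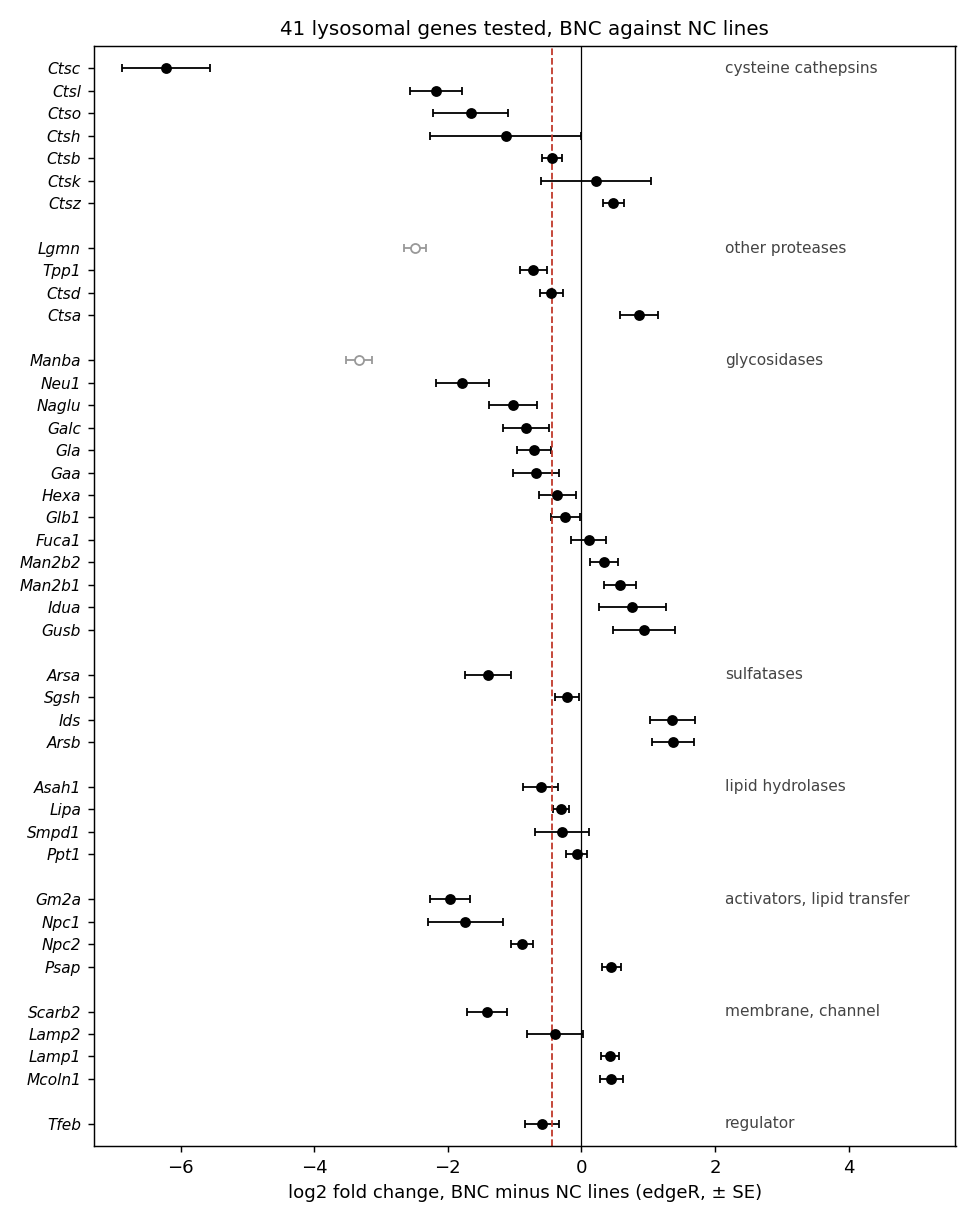
Log2 fold change, BNC minus NC lines, of the 41 lysosomal genes tested, with the standard error of the edgeR fit, sorted by role. Open grey symbols are Manba and Lgmn, which chose the set. The solid line is 0 and the dashed line the members' median of -0.44. Most genes lie within 1 log2 unit of 0, and Ctsc stands at -6.22.

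The calls rest on which lines are taken. With the reads of JB81 and JB91 summed, and those of JB84 and JB93 summed, edgeR called 0 genes in the whole table and so 0 members (1508 genes and 10 members at an unadjusted p under 0.05), and DESeq2 called 3 members, Ctsc, Lgmn and Manba, with 2.83% of all genes. At an adjusted p under 0.05 the summed pairs likewise gave 0 genes by edgeR, so the members named below at that threshold lost it too, with adjusted p-values of 0.311 for Gm2a, 0.318 for Ctsl, 0.367 for Scarb2, 0.390 for Neu1, 0.395 for Arsa, 0.399 for Npc2 and 0.425 for Arsb. With JB81, JB91, JB84, or JB93 left out, 0 members passed by edgeR (12 to 14 members and 2843 to 2910 genes at an unadjusted p under 0.05). Without JB97 7 members and 7.57% of all genes passed, and without JB87 13 members and 19.7% of all genes, so the counts rose across the whole table. DESeq2 on the 6 lines called 10 members, 8 lower and 2 higher, and 9.83% of all genes.

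Among the cysteine cathepsins, the thiol proteases of the lysosome, 1 of 7 tested members passed the call (0.654% of all genes were lower by it) and 2 were lower at an adjusted p under 0.05 (8.45% of all genes). Ctsc, which encodes the dipeptidyl peptidase that activates granule proteases of immune cells, had 0.354, 0.265, and 0.927 CPM in the BNC lines, from 8, 6, and 18 counts. It had 26.3, 60.9, and 27.7 CPM in the NC lines, with the highest level in JB87, so no line of one group came near the other. Its log2 fold change was -6.22 ± 0.66 (SE), with an adjusted p of 0.00915 by edgeR's quasi-likelihood test. This difference was favoured by the filter, which Ctsc passed through the NC lines (387, 739, and 574 counts). With the close pairs summed, its adjusted p was 0.253 by edgeR and 3.59e-13 by DESeq2.

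The promoter of Ctsc is shown for the same comparison as that of Manba and Lgmn. Its window at chr7:88277835-88278134 (plus strand, GRCm38.p6) does not hold CACGTG, and so has no capitals. The same was true of the Manba window and of the Lgmn window printed above, but not of the second Lgmn window.
Ctsc: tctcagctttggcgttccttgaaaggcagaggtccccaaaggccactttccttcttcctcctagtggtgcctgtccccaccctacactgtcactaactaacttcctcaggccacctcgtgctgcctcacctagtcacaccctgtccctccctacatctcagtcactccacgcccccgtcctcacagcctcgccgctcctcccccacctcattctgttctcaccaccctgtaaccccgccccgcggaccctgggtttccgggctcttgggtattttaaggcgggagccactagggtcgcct

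Ctsl, the endopeptidase cathepsin L, was the other cysteine cathepsin with an adjusted p under 0.05. It had 141, 139, and 175 CPM in the BNC lines against 851, 336, and 868 CPM in the NC lines. The groups did not overlap, but JB87 was at well under the level of JB84 and JB93. The log2 fold change was -2.17 ± 0.39, with an adjusted p of 0.0238 by edgeR's quasi-likelihood test. Ctsz, the carboxypeptidase cathepsin Z, had the highest level per length of this group, at a mean of 90.6 CPM per kb of exon over the 6 lines. It led in the BNC lines, at 106 CPM per kb, but in the NC lines Ctsl was higher (106 against 75.6 CPM per kb). The values of Ctsz ran against those of Ctsl, at 159, 169, and 128 CPM in the BNC lines and 98.2 and 110 CPM in JB84 and JB93, with JB87 between these and the BNC lines, and the difference did not pass (adjusted p of 0.0929 by edgeR). Ctsb, cathepsin B, had between 239 and 292 CPM in the BNC lines and between 336 and 399 CPM in the NC lines (log2 fold change -0.44, adjusted p of 0.0925 by edgeR).

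Other cathepsins did not separate the labels or were hardly expressed. Ctsh, an aminopeptidase, was at 0.753 and 0.752 CPM in JB81 and JB91, whereas JB97 had 12.7 CPM, within the range of 8.68 to 13.3 CPM seen in the NC lines. Ctso, a further cysteine protease, was at 23.2 and 21.3 CPM in JB84 and JB93, and JB87 had 5.69 CPM, inside the BNC range of 3.81 to 6.45 CPM. Ctsk, the collagen-degrading cathepsin of osteoclasts, was at or below 1.55 CPM in every line. Ctss, the cathepsin of antigen-presenting cells, had 1 count in JB84 and 0 in the other lines, and Ctse, an aspartic protease, had 1 count in JB97 and 0 elsewhere. Ctsf, the third gene without a test, had between 1 and 17 counts.

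Of the other proteases, apart from Lgmn, 3 were tested and none passed at an adjusted p under 0.05. Ctsd, the aspartic protease cathepsin D, was the most abundant per length, at 129 CPM per kb, and had 268, 275, and 223 CPM in the BNC lines against 351, 301, and 396 CPM in the NC lines (log2 fold change -0.45 ± 0.17, adjusted p of 0.114 by edgeR). Tpp1, a tripeptidyl peptidase, had 44.1, 47.8, and 68.8 CPM against 83.0, 95.7, and 85.8 CPM. Ctsa, the protective protein that holds sialidase and beta-galactosidase in a complex, lay the other way, at 100, 107, and 99.5 CPM in the BNC lines and 42.1, 82.2, and 45.1 CPM in the NC lines. Their estimates of -0.72 and 0.86 had adjusted p-values of 0.0654 and 0.0890 by edgeR.

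Among the glycosidases, which strip sugars from glycoproteins, glycolipids and glycosaminoglycans, 12 members were tested beside Manba. Of these, 1 was lower at an adjusted p under 0.05 (8.45% of all genes). Neu1, the sialidase, had 12.3, 12.2, and 10.7 CPM in the BNC lines and 50.1, 19.5, and 51.3 CPM in the NC lines. It was lower in every BNC line, with a log2 fold change of -1.78 ± 0.39 and an adjusted p of 0.0362 by edgeR's quasi-likelihood test. Hexa, the alpha subunit of beta-hexosaminidase and the most abundant of the group per length (45.6 CPM per kb), had 84.1, 89.0, and 66.3 CPM against 117, 65.3, and 125 CPM, with overlapping groups. Gusb, beta-glucuronidase, had between 93.9 and 98.2 CPM in the BNC lines and 89.6 CPM in JB87, but 30.9 and 28.8 CPM in JB84 and JB93. Thus Gusb separated the pair JB84 and JB93 from the other 4 lines, and its log2 fold change of 0.94 ± 0.46 did not pass (adjusted p of 0.196 by edgeR). The mannosidase relatives of Manba did not share its pattern, since Man2b1 had 76.8, 81.3, and 67.7 CPM in the BNC lines against 40.6, 68.5, and 41.8 CPM in the NC lines, and Man2b2 had 55.0, 60.1, and 37.1 CPM against 38.7, 38.0, and 43.3 CPM. The remaining glycosidases were Gaa, Galc, Glb1, Gla, Naglu, Idua and Fuca1, which act on glycogen, galactolipids, galactosides, glycosaminoglycans and fucose. Of these, Gla (9.50 to 12.5 CPM against 12.7 to 20.8 CPM) and Naglu (6.70 to 16.4 CPM against 21.5 to 29.2 CPM) did not overlap between the groups. Both had every NC line above every BNC line, as had 21.4% of all genes, and the other 5 overlapped. The adjusted p-values of the remaining glycosidases lay between 0.103 (Naglu) and 0.767 (Fuca1) by edgeR.

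The sulfatases, which take sulfate from glycosaminoglycans and sulfatide, held members of both directions. Arsa, arylsulfatase A, was lower in the BNC lines, at 28.1, 28.9, and 17.6 CPM against 74.4, 39.6, and 82.6 CPM (log2 fold change -1.40 ± 0.34, adjusted p of 0.0468 by edgeR's quasi-likelihood test). Arsb, arylsulfatase B, was the member with an adjusted p under 0.05 that was higher in the BNC lines. It had 71.3, 69.7, and 33.6 CPM in JB81, JB91, and JB97 and 21.2, 24.6, and 21.8 CPM in the NC lines (log2 fold change 1.37 ± 0.31, adjusted p of 0.0394 by edgeR). Ids, the iduronate sulfatase with the highest level per length here (33.8 CPM per kb), had 311, 305, and 130 CPM in the BNC lines against 98.8, 94.8, and 96.3 CPM in the NC lines, and at an adjusted p of 0.0505 it did not pass. For both Arsb and Ids, JB97 lay between the pair JB81 and JB91 and the NC lines. Sgsh, the heparan sulfatase sulfamidase, was between 15.1 and 21.1 CPM in all 6 lines.

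None of the 4 lipid hydrolases passed at an adjusted p under 0.05. Asah1, acid ceramidase, had the highest level per length (58.6 CPM per kb), with 160, 167, and 145 CPM in the BNC lines and 281, 155, and 284 CPM in the NC lines. JB87 again lay with the BNC lines. Lipa, the acid lipase for cholesteryl esters, had between 48.0 and 48.7 CPM in the BNC lines and between 56.6 and 62.7 CPM in the NC lines. This small difference separated the groups, but its adjusted p was 0.137 by edgeR (log2 fold change -0.30 ± 0.12). Smpd1, acid sphingomyelinase, was low in JB97, at 14.4 CPM, and between 36.0 and 45.5 CPM in the other 5 lines. Ppt1, a thioesterase that removes palmitate from proteins, was between 32.9 and 43.3 CPM in all 6 lines.

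Of the activator and lipid transfer proteins, 2 of 4 were lower in the BNC lines at an adjusted p under 0.05 (8.45% of all genes). Gm2a, the activator that lifts GM2 ganglioside to hexosaminidase, had 7.09, 7.78, and 14.1 CPM in the BNC lines and 36.1, 39.0, and 38.5 CPM in the NC lines. JB87 stood here with JB84 and JB93, and the log2 fold change was -1.97 ± 0.30 with an adjusted p of 0.0172 by edgeR's quasi-likelihood test. Npc2, which hands cholesterol to Npc1, had 186, 184, and 171 CPM against 354, 270, and 377 CPM (log2 fold change -0.89 ± 0.17, adjusted p of 0.0263 by edgeR). Its membrane partner Npc1 had 40.0, 40.1, and 40.5 CPM in the BNC lines and 39.8 CPM in JB87, but 175 and 189 CPM in JB84 and JB93. Psap, the precursor of the saposins, was the member with the highest level per length of the whole set, at 211 CPM per kb. It had 620, 683, and 707 CPM in the BNC lines and 475, 476, and 521 CPM in the NC lines (log2 fold change 0.45 ± 0.14, adjusted p of 0.0744 by edgeR).

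Among the membrane proteins, Scarb2, the receptor that carries glucocerebrosidase to the lysosome, was lower in the BNC lines. It had 54.2, 49.8, and 42.6 CPM against 158, 77.9, and 154 CPM, a log2 fold change of -1.41 ± 0.30 with an adjusted p of 0.0344 by edgeR's quasi-likelihood test. Lamp1, the main glycoprotein of the lysosomal membrane and the member with the highest level per length in this group (208 CPM per kb), had 649, 674, and 597 CPM in the BNC lines and 453, 493, and 481 CPM in the NC lines. It was slightly higher in every BNC line, but did not pass (log2 fold change 0.43 ± 0.13, adjusted p of 0.0794 by edgeR). Lamp2 was lowest in JB87, at 221 CPM, and highest in JB84 and JB93, at 632 and 618 CPM, with the BNC lines between 287 and 423 CPM. The calcium channel gene Mcoln1 was between 26.2 and 31.9 CPM in the BNC lines and at most 23.9 CPM in the NC lines (adjusted p of 0.112 by edgeR).

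**Figure D3:**
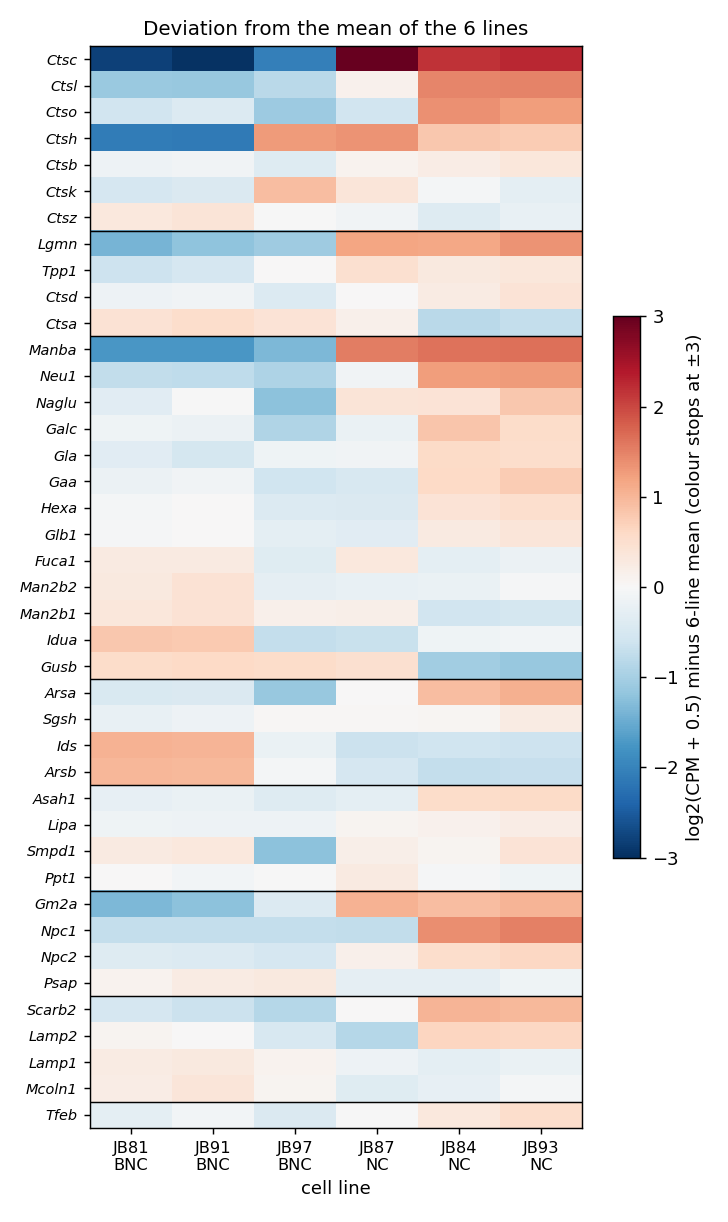
Deviation of each line from the mean of the 6 lines, in log2(CPM + 0.5), for the 41 lysosomal genes tested, grouped by role (black lines). Red is above and blue below the mean, and the colour stops at 3 log2 units. JB81 and JB91 look alike, as do JB84 and JB93, whereas JB97 and JB87 each depart from the pair of their own label for part of the genes.

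Lines of 1 label differed among themselves as well as from those of the other label. No member differed by more than 2-fold between JB81 and JB91, or between JB84 and JB93. JB97 was more than 2-fold away from the mean of JB81 and JB91 for 8 of 41 members, and JB87 was that far from the mean of JB84 and JB93 for 8 members. JB87 and JB97, of different labels, were more than 2-fold apart for 7 members, whereas the 2 close pairs were more than 2-fold apart for 16. Over all genes the counts were made between single lines and not against the mean of a pair. Within a label, 1560 of 10631 genes were more than 2-fold apart between JB81 and JB97 and 2434 of 10393 between JB84 and JB87. Across the labels there were 1343 of 10404 between JB87 and JB97 and 3650 of 10776 between JB81 and JB84. Nothing particular to the members is read from these counts. On the log2 scale JB87 was nearer to JB84 and JB93 for 20 members and nearer to the mean of the BNC lines for 21, and it lay inside the range of the BNC lines for 10. Manba, Lgmn, Gm2a and Ctsc were among the genes for which JB87 was nearer to the NC pair. Npc1, Gusb, Ctso and Asah1 were among those for which it was nearer to the BNC lines.

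Tfeb, the master regulator of lysosomal genes, was at 7.13, 8.40, and 6.39 CPM in the BNC lines and 11.1, 8.73, and 13.1 CPM in the NC lines. Every NC line was above every BNC line, but the difference did not pass (log2 fold change -0.59 ± 0.25, adjusted p of 0.156 by edgeR). The E-box CACGTG and the longer core TCACGTGA, which TFEB binds, were searched in the promoter windows on both strands. Both read the same on either strand, and the core contains the E-box. Windows were found for 39 of the 44 members. CACGTG was in a window of 13 of these (33.3%) and of 8.09% of the 27025 genes with a window, and TCACGTGA was in 4 of the 39 (10.3%) and in 1.12% of all. These are counts of letters and not of binding.

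The stretches with the core are shown because the estimates of their genes had both signs, with the core in capitals, 5′ to 3′ on the strand of the gene (RefSeq, GRCm38.p6). They lie at chr2:164833744-164833800 (plus strand) for Ctsa, chr7:142387903-142387942 (minus) for Ctsd, chr8:3500457-3500496 (plus) for Mcoln1 and chrX:134601177-134601249 (minus) for Gla, and Ctsa and Gla hold the core at 2 places. Ctsl, at chr13:64370735-64370770 (minus), is added as a gene with an adjusted p under 0.05 that holds the E-box without the full core.
Ctsa: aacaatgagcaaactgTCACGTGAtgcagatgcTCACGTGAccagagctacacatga
Ctsd: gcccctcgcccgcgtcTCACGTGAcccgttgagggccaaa
Mcoln1: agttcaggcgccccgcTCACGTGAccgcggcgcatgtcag
Gla: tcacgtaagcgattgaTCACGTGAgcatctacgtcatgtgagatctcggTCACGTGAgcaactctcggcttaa
Ctsl: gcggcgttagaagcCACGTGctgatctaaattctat
The log2 fold changes of the genes with the core were 0.86 for Ctsa, -0.45 for Ctsd, 0.45 for Mcoln1 and -0.71 for Gla, and none of them had an adjusted p under 0.05 by edgeR. Among Manba, Lgmn and the 8 members with an adjusted p under 0.05, CACGTG was in a window of Lgmn, Ctsl and Arsa and in none of the other 7.

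Genes of the same organelle outside the set were read from other lists. Of 30 other hydrolase genes 26 were tested, and 1 passed the call, Dnase2a, the acid endonuclease, which was lower in the BNC lines (1.15, 0.619, and 0.824 CPM against 8.55, 10.1, and 8.25 CPM, adjusted p of 0.00814 by edgeR's quasi-likelihood test). Another 5 were lower at an adjusted p under 0.05. With Dnase2a this made 6 lower and 0 higher, beside 8.45% and 5.78% of all genes. In either direction, 11 of the list had an unadjusted p under 0.05 (35.6% of all genes). By DESeq2, 9 had an adjusted p under 0.05 (19.1% of all genes). The 19.1%, here and in the lists below, is over 20589 genes without the filter on counts, so it is not a matched share. Rnaset2a, an acid ribonuclease among the 5, was at between 0.155 and 0.309 CPM against 1.24 to 2.36 CPM. It had 6, 7, and 3 counts in the BNC lines. It passed the filter through the NC lines (27, 15, and 49 counts), which favoured its difference. Rnaset2a has a near-identical neighbour, Rnaset2b, so its reads may be split between the 2 genes. Of 21 other membrane genes 1 passed, Tpcn1, a cation channel of endosomes and lysosomes, with 18.2, 20.7, and 21.3 CPM in the BNC lines and 84.9, 64.8, and 99.3 CPM in the NC lines (adjusted p of 0.00761 by edgeR). Slc38a9, the arginine sensor of mTORC1, was lower at an adjusted p of 0.0190. In this list 4 genes were lower and 0 were higher at an adjusted p under 0.05, beside the same 8.45% and 5.78%. In either direction 9 had an unadjusted p under 0.05, and 7 an adjusted p under 0.05 by DESeq2, beside the same 35.6% and 19.1%. The call passed by Dnase2a and Tpcn1 was reached by 0.654% of all genes in the lower direction.

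Among 17 genes of enzyme sorting, 1 passed (0.654% of all genes were lower by the call). Sort1, which encodes sortilin, a receptor that delivers some hydrolases without mannose 6-phosphate, had 1.55, 1.72, and 3.40 CPM in the BNC lines and 39.2, 37.8, and 40.5 CPM in the NC lines. These groups did not overlap (log2 fold change -4.14 ± 0.36, adjusted p of 0.00599 by edgeR's quasi-likelihood test). At an adjusted p under 0.05, 2 genes of the list were higher in the BNC lines and Sort1 alone was lower, beside 5.78% and 8.45% of all genes (5 in either direction at an unadjusted p under 0.05, and 4 at an adjusted p under 0.05 by DESeq2, beside 35.6% and 19.1%). Gga1, a Golgi adaptor, was at 78.8, 82.6, and 81.3 CPM against 52.8, 52.8, and 59.1 CPM. Igf2r, the large receptor for mannose 6-phosphate, was at 315, 311, and 137 CPM against 68.0, 117, and 67.8 CPM (log2 fold change 1.59 ± 0.40, adjusted p of 0.0498 by edgeR), and was named after its values were seen. The proton pump list had 20 genes tested and none passed the call, while 2 were lower and 1 was higher at an adjusted p under 0.05 (7 at an unadjusted p under 0.05, and 6 at an adjusted p under 0.05 by DESeq2, beside 35.6% and 19.1% of all genes). Its genes with the smallest p were the subunits Atp6v0e2, at 0.0886 to 0.155 CPM in the BNC lines and 2.58 to 6.59 CPM in the NC lines, and Atp6v1b1, at no more than 1 count in any BNC line. Both passed the filter through the NC lines, which favoured their differences.

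In the lists of TFE factors with mTORC1 control (17 tested) and of autophagy (16 tested), 0 genes had an adjusted p under 0.05 by edgeR. At an unadjusted p under 0.05 there were 6 and 4 (35.6% of all genes), and DESeq2 gave 4 and 2 at an adjusted p under 0.05 (19.1% of all genes). Mitf, a relative of Tfeb, was at 0.0886, 0.133, and 0.927 CPM in the BNC lines against 8.62, 2.31, and 6.95 CPM in the NC lines (adjusted p of 0.0525 by edgeR). With 2, 3, and 18 counts in the BNC lines, Mitf passed the filter through the NC lines (127, 28, and 144 counts), which favoured its difference. Rragc, a GTPase of the same pathway, was near 115 CPM in the BNC lines and at 130 CPM in JB87, but at 261 and 247 CPM in JB84 and JB93. Sqstm1, the autophagy receptor p62, had 2363 and 2669 CPM in JB84 and JB93 and between 273 and 399 CPM in the other 4 lines. Gabarapl1, a protein of the autophagosome, was at 190 and 203 CPM in that pair and between 26.3 and 73.1 CPM elsewhere. Of 4 cathepsin inhibitors tested, Cstb, cystatin B, was lower in the BNC lines at an adjusted p of 0.0455 by edgeR (51.5, 51.3, and 64.1 CPM against 95.5, 77.4, and 92.4 CPM). Cst3, cystatin C, had 228, 250, and 116 CPM against 95.7, 107, and 104 CPM and did not pass (adjusted p of 0.0798).

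Markers of other cell types were read in the same lines. Of 15 macrophage markers, 10 had at most 3 counts in every line, and the defining genes C1qa, C1qb, C1qc and Tyrobp had 0. Lyz2 was the most abundant of the list, at 37.3 and 41.3 CPM in JB81 and JB91, 1.18 CPM in JB97 and at most 0.247 CPM in the NC lines. On the scale of all 15 libraries, the macrophage markers summed to 41.4, 44.8, and 6.74 CPM in JB81, JB91, and JB97 and to 6.64, 10.4, and 9.13 CPM in JB84, JB87, and JB93. The leukocyte gene Lcp1 was between 12.8 CPM (JB97) and 28.9 CPM (JB81) in the BNC lines and at most 0.577 CPM in the NC lines. Cd53, of the same leukocyte list, lay the other way, at 0, 0, and 0.103 CPM against 0.611, 0.247, and 0.627 CPM. Ptprc, Coro1a and Cd52 were at or below 0.659 CPM and did not separate the groups. The fibroblast gene Col1a1 was at 6161, 6771, and 3597 CPM against 706, 3943, and 818 CPM. The 8 mesothelial markers summed to 127, 126, and 665 CPM in the BNC lines and 2871, 2154, and 3014 CPM in the NC lines. The mesothelial sum was thus lower in every BNC line. Single markers of 1 cell type lay in both directions, since Lyz2 was higher in every BNC line but Cd14 was lower (0.886, 0.398, and 1.39 CPM against 3.46, 5.36, and 4.78 CPM). On the scale of all 15 libraries, Cd68 overlapped between the groups (2.39, 2.59, and 3.24 CPM against 3.22, 3.23, and 4.11 CPM). Csf1r overlapped as well (3.25, 3.24, and 0.699 CPM against 0, 0.924, and 0 CPM). Kdr, an endothelial marker, was at 0.177, 0.0442, and 7.26 CPM in the BNC lines and 61.6, 51.7, and 60.2 CPM in the NC lines. The rest of the endothelial list did not share this. Pecam1, at no more than 5 counts, lay the other way (0.177, 0.221, and 0.258 CPM against 0.0678, 0, and 0 CPM). Tek, Cdh5 and Emcn overlapped between the groups. The part of these markers in the differences of the lysosomal genes was not tested. The number at the start of the library names, whose meaning is not given in the sources used here, was shared by JB81, JB84, and JB87 and by JB91, JB97, and JB93, and with it as a covariate edgeR called 0 members and 1 gene in all (16 members and 3725 genes at an unadjusted p under 0.05).

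The tumors were then set against the lines. This comparison did not choose the set, but its line side holds the low BNC values of Manba and Lgmn that did. All 44 members were tested among 14383 genes. At the same thresholds of the edgeR test, 22 members were higher in the 9 tumors than in the 6 lines, and 0 were lower. Without Manba and Lgmn, 21 of 42 were higher and 0 were lower. Among the 3 members with a negative estimate, Ids had an unadjusted p under 0.05, and DESeq2 likewise called 0 lower and 23 higher (20.2% of all genes higher). Of all genes, 22.7% were higher and 12.4% lower by this rule. In 19 members every tumor was above every line, which was the case for 16.8% of all genes. The median log2 fold change (tumors minus lines) was 1.21 for the members, also with Ctss and Ctse at their lower bounds, and 0.17 for all genes. The difference of 1.04 between these medians depended on which genes were tested, and was 0.57 with every gene of at least 1 count and 0.64 with DESeq2, where the medians of all genes were 0.61 and 0.65.

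Tumors hold stromal and immune cells, so that more cells of a type and more RNA per cell cannot be told apart. All tumor libraries carry the same number at the start of their names and no line has it, so a difference between tissue and culture cannot be told apart from one between sets of libraries. Tumor library B1 stood apart, with 38.5% of its counts in Gm42418 and Lars2, and 17.3% in mitochondrial genes. B13 had 10.8% of its counts in Gm42418 and Lars2, where the other 7 tumors had between 0.416% and 0.807%, and B19 had 9.36% in mitochondrial genes. Without B1, 23 members and 21.5% of all genes were higher, and without B13, 22 members and 21.5% of all genes.

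The 5 largest estimates were those of Ctss, Ctsk, Ctse, Ctsf and Ctsc, of which the first 4 had few or no counts in the lines and entered the test through the tumors, so that their differences were favoured by the filter. Of the 9 cysteine cathepsins 8 were higher in tumors by this rule, all but Ctsl, and in 7 every tumor was above every line (22.7% and 16.8% of all genes). With at least 10 counts required in every library, Ctsc, Ctse, Ctsf, Ctsk and Ctss were not tested, and Ctsb, Ctsh, Ctso and Ctsz were the cysteine cathepsins called among 19 members (14.3% of all genes higher). On the scale of the 15 libraries, Ctss had a lowest, median and highest tumor level of 199, 602, and 1424 CPM, against at most 1 count in any line, so that the median tumor was at least 2607-fold above a floor of 3 counts in the shallowest line. Ctsk was between 42.4 and 505 CPM in the tumors (median of 167 CPM) and between 0.247 and 1.50 CPM in the lines (log2 fold change 8.67 ± 0.81, adjusted p of 7.82e-07 by edgeR). Ctsf, at a median of 15.7 CPM and no less than 8.86 CPM in the tumors, was at most 1.31 CPM in the lines. Ctsc, which separated the groups of lines, was at 256, 529, and 1065 CPM in the lowest, median and highest tumor, and its highest line, JB87, had 56.9 CPM. Ctse, the aspartic protease of the stomach and of some immune cells, was low in the tumors too, at between 0.581 and 6.12 CPM, with a median at least 6.25-fold above the floor, and in B1 it was below the floor of that library (0.872 CPM).

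At the other end of the order, the 5 lowest estimates (tumors minus lines, with sign) were those of Ids, Asah1, Npc1, Lamp2 and Glb1. Ids was at 44.8, 86.3, and 117 CPM in the lowest, median and highest tumor and between 88.6 and 289 CPM in the lines. Its log2 fold change of -1.04 ± 0.33 had an adjusted p of 0.0130 by edgeR and thus missed the threshold. Asah1, with a median of 162 CPM in the tumors and 152 CPM in the lines, and Lamp2, with 449 CPM and 384 CPM, had log2 fold changes of -0.25 and 0.04. The sign for Lamp2 turned to -0.04 without TMM scaling. Npc1 (-0.23) and Glb1 (0.13) were likewise within 1 SE of 0. None of the 4 sulfatases and none of the 4 membrane proteins passed the call.

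For Ctsb, Ctsd and Psap every tumor was above every line. Ctsb was at 1370, 1661, and 2349 CPM in the lowest, median and highest tumor, and between 231 and 373 CPM in the lines (log2 fold change 2.54 ± 0.22, adjusted p of 4.06e-07 by edgeR). Ctsd was at 443, 910, and 2910 CPM in the tumors and at most 371 CPM in the lines. Psap was at 1035, 1372, and 2643 CPM and at most 685 CPM in the lines. The whole set summed to between 8812 and 16452 CPM in the tumors, above the 3647 to 5468 CPM of the lines on this scale.

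Manba and Lgmn differed from each other in the tumors. Lgmn was at 288, 526, and 749 CPM in the lowest, median and highest tumor, above every line (at most 86.6 CPM), with a log2 fold change of 3.54 ± 0.51 and an adjusted p of 4.29e-05 by edgeR. The line side of this difference holds the low BNC values that chose Lgmn, which favoured it. Manba was at 21.8, 43.5, and 74.9 CPM in the tumors, and all 9 tumors were above the BNC lines, whose highest level was 5.69 CPM on this scale. Of the 9 tumors, 4 lay within the range of the NC lines, 4 below it and 1 above it. The tumor to line difference of Manba did not pass (log2 fold change 0.79 ± 0.55, adjusted p of 0.233 by edgeR). The labels give 5 of the 9 tumors as BNC, and no tumor had Manba at the level of the BNC lines, but tumor genotype and the cells of the tumor could not be set apart here.

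**Figure D4:**
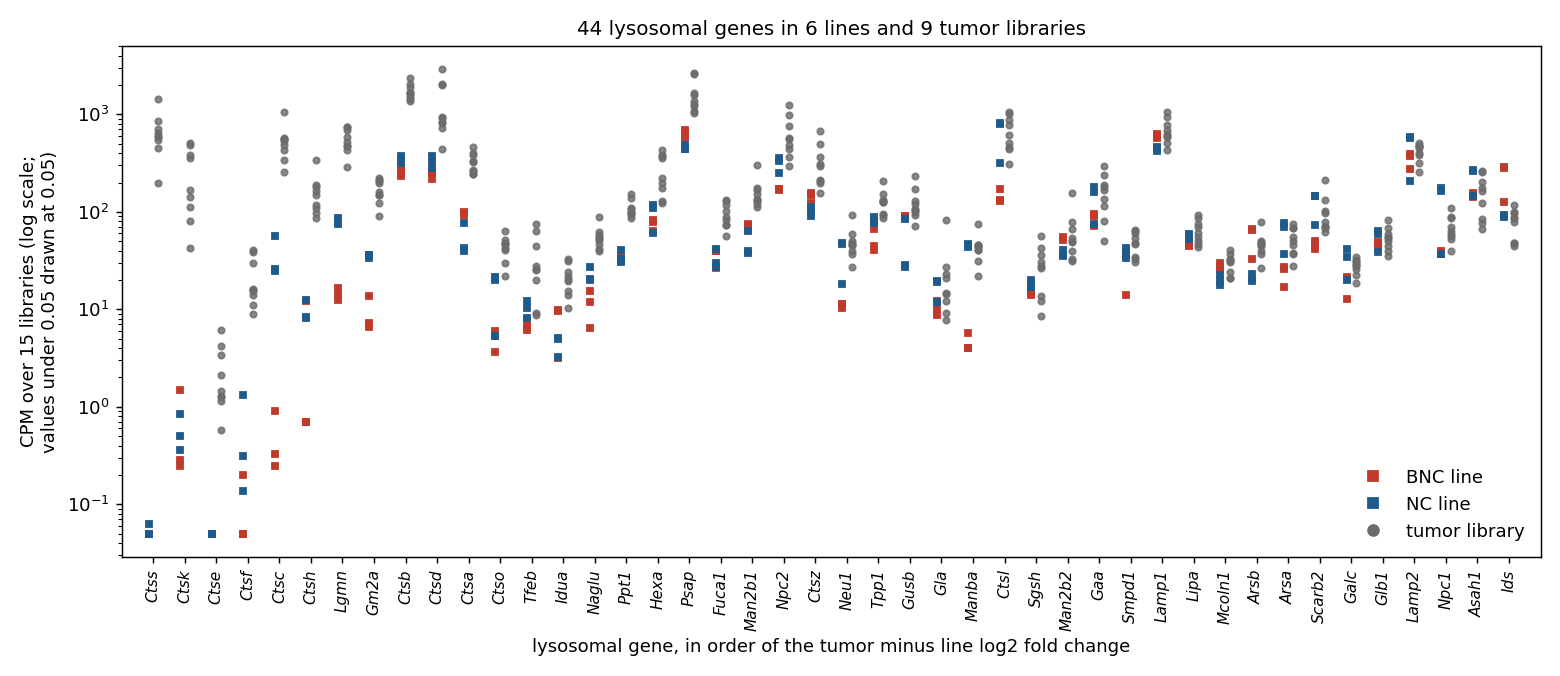
Levels (CPM over 15 libraries, log axis) of the 44 lysosomal genes in 3 BNC lines (red squares), 3 NC lines (blue squares) and 9 tumor libraries (grey circles), ordered by the log2 fold change between tumors and lines. At the left, Ctss and Ctsk are above 40 CPM in every tumor and at or under 1.50 CPM in every line, and at the right the tumors and lines overlap.

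The members also differed among the tumors. The highest tumor was between 1.71-fold (Ctsb) and 11.9-fold (Ctsk) above the lowest, with a median over members of 3.08-fold. Tumor B14 had the highest level of 19 members, and the tumors B1 and B45 each had the lowest level of 11. Tfeb ranged from 8.78 CPM in tumor 22 to 74.4 CPM in tumor B1. Markers of other cells varied beside them. The macrophage markers summed to between 2707 CPM (B28) and 10930 CPM (B14), with Lyz2 the most abundant gene of the list, at 220 CPM in the lowest and 3946 CPM in the highest tumor, and C1qa, at 0 in every line, was between 380 and 1369 CPM. B14, which led 19 members, also led this list and the mesothelial list (4456 CPM). B1 and B45, each lowest for 11 members, had macrophage sums of 7326 CPM (the median tumor) and 3340 CPM. B28, with the lowest macrophage sum, was lowest for 8 members. The part of macrophages or of mesothelial cells in the members' levels was not tested.

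The other marker lists differed between tumors as well. The pan-leukocyte markers summed to between 397 and 2003 CPM, with Lcp1 the most abundant. Muscle markers summed to between 126 and 33611 CPM, with Acta1 the most abundant and B1 the highest tumor. Lung epithelial markers, with Scgb1a1 the most abundant, reached 45531 CPM in B2 and were at most 76.7 CPM in the other tumors. Fibroblast markers, led by Col1a1, were at between 2982 and 12728 CPM in the tumors and already between 681 and 6346 CPM in the lines. Endothelial markers, led by Pecam1, were between 78.8 and 669 CPM, osteoclast markers, led by Acp5, between 39.7 and 504 CPM, and mesothelial markers, led by Msln, between 776 and 4456 CPM. The osteoclast sum was mostly Acp5, which is also in the list of other hydrolases. Its median tumor level was 109 CPM, and those of Calcr, Ocstamp and Dcstamp were 0.455, 2.19, and 1.85 CPM. T cell markers, led by Cd3g, were between 5.57 and 223 CPM and B cell markers, led by Cd79a, between 2.63 and 177 CPM. The lead of Cd79a and of Pecam1 did not hold for the median tumor. There Cd79b was above Cd79a (4.57 against 1.21 CPM) and Cdh5 above Pecam1 (69.0 against 59.5 CPM).

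**Figure D5:**
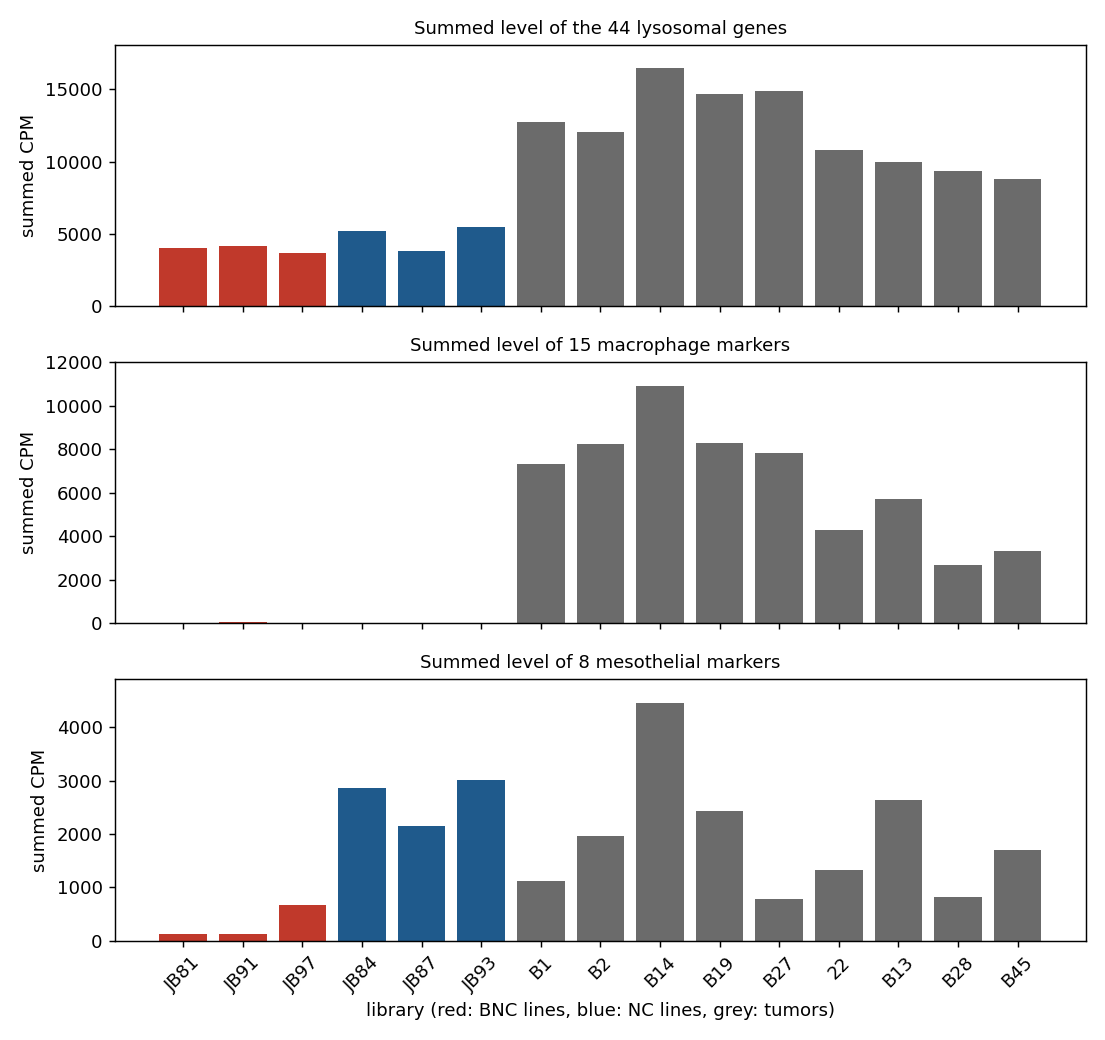
Summed level (CPM over 15 libraries) of the 44 lysosomal genes, of 15 macrophage markers and of 8 mesothelial markers in each of 6 lines and 9 tumor libraries, 1 bar per library. The lysosomal sum is between 3647 and 5468 CPM in the lines and at least 8812 CPM in the tumors, and the macrophage sum is at most 44.8 CPM in the lines and at least 2707 CPM in the tumors.

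The lists of other lysosomal genes were compared in the same way, beside 22.7% of all genes higher and 12.4% lower. Of the 30 other hydrolases 14 were higher and 2 lower in tumors by the same rule, and of 21 other membrane genes 2 were higher and 0 lower. For the proton pump the counts were 6 higher and 0 lower of 20 tested. For enzyme sorting they were 1 and 2 of 17, for TFE factors with mTORC1 control 5 and 0 of 18, for autophagy 3 and 0 of 16, and for cathepsin inhibitors 5 and 0 of 8. Of the 36 genes higher in tumors over these lists, 10 were too low in the lines to be tested between them and passed the filter through the tumors, among them 4 of the 5 inhibitors (Cst6, Cst7, Serpina3g and Serpina3n) and 4 of the 14 hydrolases. The median log2 fold change was 3.88 for the cathepsin inhibitors, 1.08 for the other hydrolases, 0.76 for the other membrane genes, 0.66 for the proton pump, 0.36 for autophagy, -0.09 for TFE factors with mTORC1 control and -0.10 for enzyme sorting, beside 0.17 for all genes.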

How the data were processed

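The authors deposited whole-number counts of reads per Ensembl gene, without normalization, for 15 RNA libraries. As their methods state, poly-A RNA was sequenced on a HiSeq 2500 as single-end reads and mapped to mm10 with TopHat 2.0.12, alignments that were nonprimary or of low quality were removed, and HTSeq-count counted the rest. The strand setting is not given in the sources used here, so overlapping and antisense genes are uncertain, as are close paralogs. Line columns were assigned by the line names and genotypes in the column heads of the study's supplementary gene table. The other 9 columns were taken as tumors because the lines were placed and the labels list 9 tumors, and 5 of their names are also those of tumor DNA libraries. The 14 columns of log2 DNA values were not used. Symbols, coordinates and exon lengths came from GENCODE M21 and gene tables, for 26796 of 27197 genes. All 44 members, 135 of 136 genes of the other lists and 61 of 62 markers were found.

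The members and lists were chosen with earlier results of these data known. Counts were tested with edgeR 4.0.16 (R 4.3.3): filterByExpr with a minimum count of 10, TMM scaling, quasi-likelihood test, and Benjamini-Hochberg adjustment over all genes. The standard error is the fold change over the square root of F. CPM used TMM scaling over 6 lines or 15 libraries. Genes named in full were Manba and Lgmn, members called or with an adjusted p under 0.05, Ctsl and Ctsc, the most abundant member per length of each role, the 5 largest and 5 smallest estimates in tumors, the 2 genes of smallest p in each other list, the most abundant marker, and the targeted genes. Any member could be named, and other markers were chosen after their values were seen. Alternatives were DESeq2 1.42.0, other scaling, filters, blocks, and left-out or summed lines. The fits were also run on simulated data, whose outcome is not given here, so nothing is drawn from it. Tables and figures used Python 3.11.15, pandas 2.3.3 and matplotlib 3.10.9. Any floor covers counting error only.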

Additional observations from a re-analysis of the deposited data

Results flagged for a closer look

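In 10 members 1 tumor stood far from the other 8, with a gap to the nearest that exceeded the 95% limit of Dixon's criterion for 9 samples. Chance flags about 1 in 20 groups, and each of the 44 members was tested. The criterion was used on CPM without a log scale, and flags that fall on the same tumor are not independent. The share of all genes flagged is not given here, so nothing particular to the members is read from their number. Tumor B14 was the highest for Ctsc (1065 CPM, next 576 CPM), Manba (74.9 CPM, next 45.9 CPM), Man2b1 (301 CPM, next 175 CPM), Man2b2 (155 CPM, next 78.6 CPM), Naglu (88.2 CPM, next 62.4 CPM) and Arsb (79.0 CPM, next 50.0 CPM). Tumor B27 was the highest for Gla (81.7 CPM, next 27.3 CPM) and Neu1 (92.1 CPM, next 59.9 CPM). Tumor B2, which also held lung epithelial markers, was the highest for Ctsh (342 CPM, next 190 CPM), and tumor B28 for Scarb2 (210 CPM, next 131 CPM).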

How the results depend on the processing

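Between BNC and NC lines, 3 members passed with the settings of the report. The count was 3 without TMM, with DESeq2 size factors in edgeR and with every gene of at least 1 count, 2 with at least 10 counts in every line, 10 with DESeq2, and 10 at an adjusted p under 0.05 with no fold threshold. It was 0 with the number of the line as a replicate block (12 members at an unadjusted p under 0.05, and 0 of all genes called), 0 with JB97 taken as number 3 in the replicate block (16), 0 with the library prefix as a covariate (16) and 0 with the close pairs summed (10, and 3 called by DESeq2). Left out in turn, single lines gave counts from 0 to 13. The replicate numbers do not pair the lines: the correlation of deviations was 0.101 for number 1, -0.0689 and 0.0817 for number 2, and the heads give 2 BNC lines the number 2. DESeq2 on summed pairs, and the fits without tumor B1 or B13, were chosen after seeing the data. The median of the members stayed between -0.59 and -0.32. Without TMM the median of all genes moved to -0.14, and the members' median, at -0.59, lay 0.45 below it. The sign of single members turned for Ctsk (-0.39 and -0.17 with the blocks, -0.04 with the prefix, -1.04 to 0.62 with a line left out, negative without JB97 or JB93), Fuca1 (-0.02 without TMM, -0.08 and -0.05 with pairs summed in edgeR and DESeq2, -0.01 to 0.34 with a line left out, negative without JB84), Smpd1 (-0.51 to 0.07 with a line left out, positive without JB97), Ppt1 (-0.15 to 0.08 with a line left out, positive without JB87) and Lamp2 (0.10 with the block). The cause was not tested. Between tumors and lines, 19 to 23 members passed, 26 at an adjusted p under 0.05, and Lamp2 turned to -0.04 without TMM. A fit within 1 library prefix was not run, since no prefix holds tumors and lines. The median of the members minus that of all genes lay between 0.57 and 1.06. Ctss, Ctse and Ctsf entered the fits between the lines with every gene of at least 1 count and with DESeq2. Ctsf was not called (adjusted p of 0.125 by DESeq2 on the 6 lines). Ctss and Ctse had at most 1 count in any line, under the floor of 3 counts. DESeq2 gave them no adjusted p, and nothing is read from the absence of a call.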
